A study of Mus musculus with 7 samples.

Results

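Amino acids enter and leave liver cells through carriers of the solute carrier (Slc) superfamily, and the mRNAs of 7 of its families were followed here in mouse liver around the clock. The carriers were chosen by name, as the probe sets with 1 gene symbol that starts with Slc1a, Slc3a, Slc6a, Slc7a, Slc36a, Slc38a or Slc43a, and for each gene the probe set with the highest mean over the 7 arrays was used. The rule found 66 probe sets of 64 genes, among 19938 genes with a single-symbol probe set, and 29 of the 64 had a mean signal above 85 units. The rule goes by symbol. It therefore also took 2 genes named for lying opposite a carrier gene, Slc7a6os and Slc6a19os, and carriers whose main cargo is not an amino acid, such as those of monoamines, creatine and nucleobases.

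Each array held RNA from 1 pool of livers from 5 male C57/BL6 mice (500 ng of RNA per liver), kept in 12 h of light and 12 h of darkness. The labels give an age of 9 to 11 weeks where they describe the housing that came before the feeding schedule, so that the mice were older at collection. For the 7 days before collection the mice had food from ZT12 to ZT24, which are the hours of darkness, where ZT (Zeitgeber Time) counts hours from lights on. Arrays were made every 4 h from ZT02 to ZT26, with 1 array per time point and no replicate arrays. ZT26 repeats the clock time of ZT02 in other mice. ZT14, ZT18 and ZT22 fell 2 h, 6 h and 10 h after food was given. ZT02 and ZT26 fell 2 h, ZT06 6 h and ZT10 10 h after it was removed. Feeding, darkness and clock time ran together in all groups and cannot be told apart.

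Values are RMA signals of Affymetrix Mouse Gene 1.0 ST arrays, given as log2 or on the natural scale as units. A mean above 85 units was taken as expressed and 43 units as background. The array medians lay between 6.37 and 6.40 on the log2 scale, and each array correlated on average at 0.994 to 0.996 with the remaining ones, across probe sets. All 6 hepatocyte markers were above 85 units, and none was called rhythmic (median amplitude 0.03 on the log2 scale). In whole tissue, fewer cells of a type and less RNA per cell cannot be told apart.

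Carriers of the Slc1 family take up glutamate or small neutral amino acids with sodium, the Slc6 family carries glycine, taurine, betaine and neurotransmitters, and the Slc38 family moves glutamine, alanine and related amino acids. Slc7 proteins exchange cationic or large neutral amino acids, and many of them reach the membrane only when bound to a heavy chain, Slc3a1 or Slc3a2. Some Slc36 and Slc38 proteins work in lysosomes, and Slc43a1 and Slc43a2 carry large neutral amino acids by facilitated diffusion. In liver these carriers feed gluconeogenesis, the urea cycle and protein synthesis, and Slc38a2 and Slc7a11 are known targets of the transcription factor ATF4 in the response to amino acid shortage.

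The promoters of 4 carriers are shown because they include both members called rhythmic below, Slc6a9 and Slc1a2, and both members with a match to the ATF4 response element, Slc1a4 and Slc7a7. The latter pair was chosen after the matches had been seen. Each line runs 5′ to 3′ on the named strand of GRCm38.p6, from 250 bases before to 50 bases after a start site in RefSeq, and capitals mark motif matches on either strand. Slc6a9 has 3 start sites in the table and Slc7a7 has 5, of which the one farthest upstream is printed.
Slc6a9, chr4:117835008-117835307, plus strand: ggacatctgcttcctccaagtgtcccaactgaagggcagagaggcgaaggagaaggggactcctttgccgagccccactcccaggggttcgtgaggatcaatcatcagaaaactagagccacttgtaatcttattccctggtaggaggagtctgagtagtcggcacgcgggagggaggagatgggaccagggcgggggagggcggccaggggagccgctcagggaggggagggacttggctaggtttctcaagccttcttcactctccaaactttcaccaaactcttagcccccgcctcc
Slc1a2, chr2:102706188-102706487, plus strand: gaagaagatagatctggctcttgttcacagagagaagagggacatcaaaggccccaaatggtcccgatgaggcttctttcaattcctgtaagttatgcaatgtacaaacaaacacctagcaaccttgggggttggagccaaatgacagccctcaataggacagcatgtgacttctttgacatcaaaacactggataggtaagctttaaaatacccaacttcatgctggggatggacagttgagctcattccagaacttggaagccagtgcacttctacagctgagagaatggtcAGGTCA
Slc1a4, chr11:20332664-20332963, minus strand: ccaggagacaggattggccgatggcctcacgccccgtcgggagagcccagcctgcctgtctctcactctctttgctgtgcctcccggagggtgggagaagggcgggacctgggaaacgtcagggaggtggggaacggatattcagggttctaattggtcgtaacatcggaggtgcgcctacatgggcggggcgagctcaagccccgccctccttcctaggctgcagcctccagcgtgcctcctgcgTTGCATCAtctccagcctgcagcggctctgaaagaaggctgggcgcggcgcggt
Slc7a7, chr14:54417895-54418194, minus strand: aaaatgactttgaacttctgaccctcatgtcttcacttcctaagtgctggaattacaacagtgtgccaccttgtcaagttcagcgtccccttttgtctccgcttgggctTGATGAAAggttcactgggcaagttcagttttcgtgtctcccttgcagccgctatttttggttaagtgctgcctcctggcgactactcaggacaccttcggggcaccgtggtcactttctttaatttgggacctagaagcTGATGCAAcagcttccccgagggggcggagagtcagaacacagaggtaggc

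The motifs were searched on both strands in 38 promoters of the 22 expressed members that the table holds and in all 32851 promoters. The ATF4 response element (TGATGNAA) was found in 3 member promoters (7.89%) and in 3.97% of all promoters. The match in Slc1a4 spans the start site. Slc7a7 holds 2 in the window printed above, and the third promoter counted is an overlapping Slc7a7 window that contains one of the same sites. The E-box (CACGTG) was in 4 member promoters (10.5%), those of Slc36a1, Slc38a7, Slc43a1 and Slc6a16, against 7.15% of all. The D-box (TTANGTAA) was in 0 of them and in 2.32% of all. The core hexamer of nuclear receptor elements (AGGTCA) was in 5 (13.2%), against 16.3% of all, and in Slc1a2 it begins 44 bases after the start site. None of these motifs matched in the Slc6a9 window printed.

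The expressed members were spread unevenly over the families. These counts go by symbol and include the opposite-strand genes Slc7a6os, above 85 units, and Slc6a19os, below it. In the Slc38 family 7 of 11 members exceeded 85 units, and in the Slc43 and Slc3 families all members did (3 of 3 and 2 of 2). In the Slc7 family 6 of 16 did, in the Slc1 family 3 of 7, in the Slc36 family 2 of 4 and in the Slc6 family 6 of 21. Means of different probe sets are set here against 85 and 43 units and not against one another, because probe sets differ in how strongly they bind.

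Among the sodium-coupled carriers of the Slc38 family, the mean was 11125 units for Slc38a3 (the system N carrier SNAT3, which moves glutamine and histidine), 8899 for Slc38a4 and 2484 for Slc38a2 (the system A carriers SNAT4 and SNAT2, which take up alanine and other small neutral amino acids). Slc38a10 had 732 units, Slc38a7 (lysosomal glutamine export) 561, Slc38a9 (the lysosomal arginine sensor of mTORC1) 454 and Slc38a6 186. These 7 members were expressed on this scale, whereas Slc38a1, Slc38a5, Slc38a8 and Slc38a11 had means of 59.5, 61.3, 48.2 and 19.2 units.

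In the Slc6 family the expressed members were Slc6a13 (GAT2, a carrier of GABA and taurine) at 5184 units, Slc6a12 (BGT1, the betaine carrier) at 3259, Slc6a6 (the taurine carrier) at 1660.4, Slc6a9 (GlyT1, the glycine carrier) at 1496, Slc6a8 (the creatine carrier) at 184 and Slc6a16 (an orphan carrier) at 88.9. The dopamine, noradrenaline and serotonin carriers Slc6a3, Slc6a2 and Slc6a4 had means of 73.4, 51.7 and 39.4 units, and the kidney and gut carriers Slc6a18 and Slc6a19 38.6 and 26.2. Slc6a16 was the member just above 85 units, with arrays from 76.1 to 109.7 units. The nearest below were Slc6a17 at 74.9, Slc6a3 at 73.4 and Slc7a4 at 69.3.

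In the Slc7 family the expressed members were Slc7a2 (CAT2, a carrier of arginine and lysine) at 5086 units, Slc7a5 (LAT1) at 242, Slc7a8 (LAT2) at 168, Slc7a7 (y+LAT1) at 122 and Slc7a1 (CAT1) at 107, with the opposite-strand gene Slc7a6os at 242. The heavy chain of Slc7a5, Slc7a7 and Slc7a8, Slc3a2 (4F2hc, CD98), had 2005 units. The other heavy chain, Slc3a1 (rBAT), had 1196 units, while its known light chains Slc7a9 and Slc7a13 had 34.8 and 14.9. Further light chains of Slc3a2 were not expressed on this scale, namely Slc7a6 at 60.6 units, Slc7a10 at 58.7 and Slc7a11 (xCT, the cystine carrier) at 16.7.

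The remaining expressed members were Slc1a2 (GLT-1, a glutamate carrier of hepatocytes around the central vein) at 1823 units, Slc1a4 (ASCT1) at 134 and Slc1a5 (ASCT2) at 123, both carriers of alanine, serine and cysteine. Slc36a1, a proton-coupled carrier of lysosomes, had 824 units and Slc36a4 322. The Slc43 members were Slc43a3 (now known as a purine nucleobase carrier) at 1923 units, Slc43a1 (LAT3) at 329 and Slc43a2 (LAT4) at 211.

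Of the 35 members at or below 85 units, 19 had means between 43 and 85 units and 16 at or below 43. Their highest single arrays were 83.7 units (Slc6a3) and 82.8 units (Slc6a17), so that none of the 35 passed 85 units on any of the 7 arrays. Timing was not described for these 35.

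**Figure D1:**
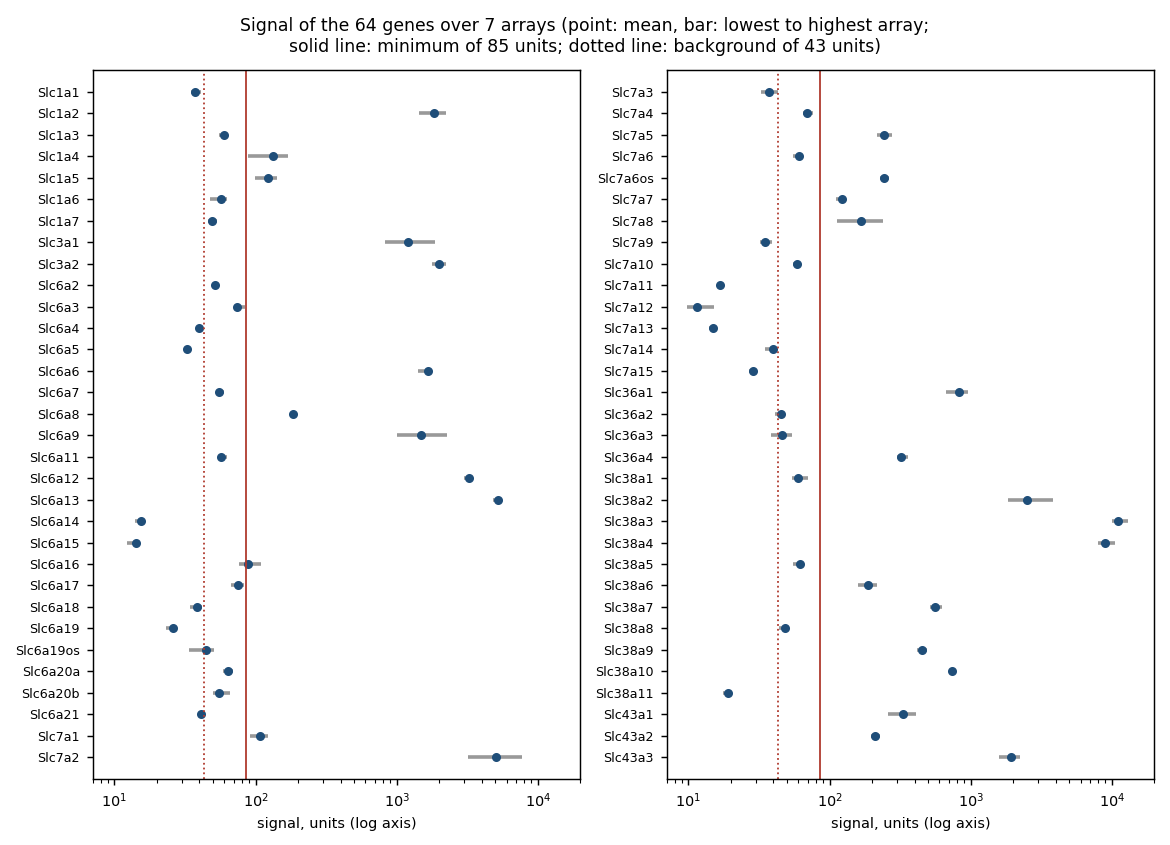
Signal of the 64 genes in units on a log axis, ordered by family. Points are means of 7 arrays, bars run from the lowest to the highest array, the solid line is 85 units and the dotted line 43 units. The 29 expressed members lie right of the solid line, and Slc6a16 (mean 88.9) and Slc6a17 (mean 74.9) lie on either side of it.

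To ask which carriers followed the daily cycle, a 24-h cosine was fitted to the log2 values and tested with limma over 12076 probe sets. Of the 29 expressed members 2 passed, Slc6a9 and Slc1a2 (6.90%), against 4.47% of all probe sets tested. Both peaked shortly after food was given. At an unadjusted p under 0.05 the count was 16 of 29 (55.2%), against 25.7% of all. The median amplitude (mean to peak, log2) was 0.14 for the members and 0.09 over all probe sets tested.

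Slc6a9, the glycine carrier, had the largest fitted amplitude among the 29. The signal of Slc6a9 was 1009 units at ZT02, 1224 at ZT06, 1941 at ZT10, 2264 at ZT14, 1622 at ZT18, 1296 at ZT22 and 1113 at ZT26. It was highest on the last array before food and the first array with food and lowest at both repeats of the morning time point, and arrays with and without food overlapped. The fitted amplitude was 0.53 ± 0.05 (SE) on the log2 scale, a 2.08-fold difference between peak and trough, with a peak at ZT13.6 ± 0.40 h (limma adjusted p = 0.0151). The call was lost without the ZT02 array (adjusted p = 0.0679) or without the ZT14 array (adjusted p = 0.0853).

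Slc1a2, the glutamate carrier of pericentral hepatocytes, had nearly the same peak time. The signal of Slc1a2 was 1535 units at ZT02, 1743 at ZT06, 2114 at ZT10, 2234 at ZT14, 1941 at ZT18, 1757 at ZT22 and 1433 at ZT26. It rose from ZT02 to ZT14 and was lower on each later array, and arrays with and without food overlapped. The amplitude was 0.28 ± 0.04 (SE) with a peak at ZT13.6 ± 0.56 h (limma adjusted p = 0.0308). Leaving out any 1 array other than ZT22 ended the call, with adjusted p-values up to 0.125. The 5 markers of pericentral hepatocytes moved less, with a median amplitude of 0.05 on the log2 scale and summed signals of 33415 to 35388 units inside and 33779 to 35263 units outside the food window, and none of them was called. Among them Glul, the glutamine synthetase of the same cells, had the smallest amplitude, 0.04 (limma adjusted p = 0.705). Rhbg had the largest, 0.13 (limma adjusted p = 0.413).

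By the thresholds of the study's methods (Fisher's one-period test at an unadjusted p under 0.25, highest over lowest array above 1.5-fold, mean above 85 units), 8 of 29 members passed (27.6%), against 13.6% of all probe sets tested. These were Slc6a9, Slc1a2, Slc1a4, Slc38a2, Slc3a1, Slc43a1, Slc7a2 and Slc7a8. A fold above 1.5 alone was also reached by 8 members (27.6%), against 16.3% of all.

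The fitted peaks of the 29 members were spread over the day. Between ZT6 and ZT12, before food, lay 11 peaks (37.9%, against 24.9% of all probe sets tested), including 6 of the 7 Slc38 members. Between ZT12 and ZT18 lay 5 (17.2%, against 27.0%), between ZT18 and ZT24 lay 9 (31.0%, against 24.1%) and between ZT0 and ZT6 lay 4 (13.8%, against 23.9%). Most of these peaks belong to fits that did not pass, and a flat profile has a peak time of little meaning.

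**Figure D2:**
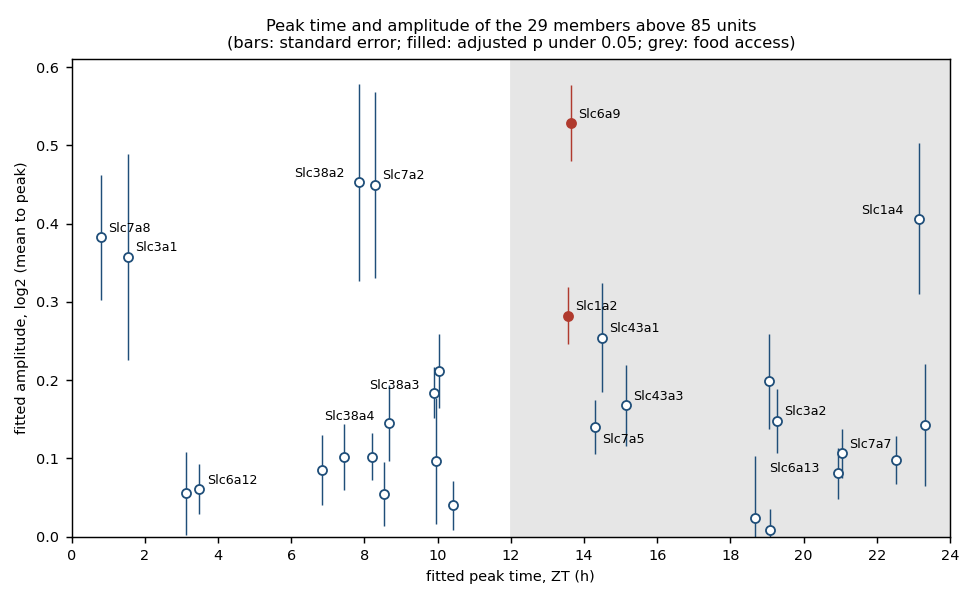
Fitted peak time (ZT, h) and amplitude (log2, mean to peak) of the 29 expressed members, with bars for the standard error of the amplitude and grey for the hours of food. Filled points are Slc6a9 (amplitude 0.53) and Slc1a2 (0.28), both with a peak at ZT13.6, which passed the test. Open points did not pass.

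Slc38a2, Slc38a3, Slc38a4 and Slc7a2, carriers of small neutral amino acids, glutamine, arginine and lysine, had their highest array at ZT10, late in the hours without food. The signal of Slc38a2 was 2390.3 units at ZT02, 3167 at ZT06, 3824 at ZT10, 1834.5 at ZT14, 2028 at ZT18, 2014 at ZT22 and 2132 at ZT26. The highest array was ZT10, 10 h after food removal, and the lowest ZT14, 2 h after food was given. The 3 arrays of the food window lay below the 4 outside it. The fitted amplitude was 0.45 ± 0.13 (SE) with a peak at ZT7.85 ± 0.94 h, and the cosine did not pass (limma adjusted p = 0.146). The signal was 2.08-fold lower at ZT14 than at ZT10, the array 4 h earlier.

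The signal of Slc7a2, the carrier of arginine and lysine, was 5046 units at ZT02, 5515 at ZT06, 7773 at ZT10, 5033 at ZT14, 3221 at ZT18, 4537 at ZT22 and 4480.1 at ZT26. It was highest at ZT10, lowest at ZT18, and overlapped between the windows because ZT14 and ZT22 lay above ZT26. The amplitude was 0.45 ± 0.12 (SE) with a peak at ZT8.30 ± 0.89 h (limma adjusted p = 0.131). Its ratio of highest to lowest array, 2.41, exceeded that of the other expressed members.

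Slc38a3 and Slc38a4 showed smaller differences with a maximum at the same array. The signal of Slc38a3 was 10562 units at ZT02, 11525 at ZT06, 13062 at ZT10, 11916 at ZT14, 10171 at ZT18, 10034 at ZT22 and 10603 at ZT26. Its amplitude was 0.18 ± 0.03 (SE) with a peak at ZT9.89 ± 0.62 h, just outside the threshold (limma adjusted p = 0.0548). Slc38a3 passed in 5 alternatives of scaling, minimum or spread (limma adjusted p from 0.0184 to 0.0484). In these 5 the calls over all probe sets also rose, from 540 to between 618 and 772. It did not pass with any 1 array left out (limma adjusted p from 0.0855 to 0.181). Nor did it pass with no minimum on the mean (0.0971) or with ZT02 and ZT26 averaged (0.0976). Slc38a4 had 8901 units at ZT02, 9280 at ZT06, 10499 at ZT10, 8668 at ZT14, 8034 at ZT18, 8609 at ZT22 and 8300.1 at ZT26, with an amplitude of 0.14 ± 0.05 (SE) and a peak at ZT8.66 ± 1.14 h (limma adjusted p = 0.215). Without the ZT10 array the amplitude of Slc38a4 was 0.08. Both were highest at ZT10, and in both the food window overlapped the hours without food.

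Slc38a2 and Slc38a4 are neighbours on the chromosome, with Slc38a1 on the other side of Slc38a2. The profiles of Slc38a2 and Slc38a4 had a Pearson correlation of 0.892 over the 7 arrays, given as a description, and Slc38a1 was below 85 units. Slc6a13 and Slc6a12, the other expressed pair of neighbours, had a correlation of 0.12.

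Slc7a5, Slc43a1 and Slc43a3 had fitted peaks between ZT12 and ZT18, and none of these fits passed. The signal of Slc7a5, the light chain LAT1 for leucine and other large neutral amino acids, was 217 units at ZT02, 242 at ZT06, 248 at ZT10, 275 at ZT14, 252 at ZT18, 246 at ZT22 and 217 at ZT26. The highest array was ZT14 and the lowest were ZT02 and ZT26, while ZT10 lay above ZT22, so that the windows overlapped. The amplitude was 0.14 ± 0.03 (SE) with a peak at ZT14.3 ± 1.05 h (limma adjusted p = 0.109).

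The signal of Slc43a1, also a carrier of large neutral amino acids, was 275 units at ZT02, 259.6 at ZT06, 411 at ZT10, 371 at ZT14, 366 at ZT18, 316 at ZT22 and 303 at ZT26. Like Slc38a2 it was highest at ZT10, the last array before food, with an amplitude of 0.25 ± 0.07 (SE) and a peak at ZT14.5 ± 1.19 h (limma adjusted p = 0.143). Slc43a3 had 1597 units at ZT02, 1806 at ZT06, 1998 at ZT10, 2246 at ZT14, 1951 at ZT18, 2082 at ZT22 and 1784 at ZT26, with an amplitude of 0.17 ± 0.05 (SE) and a peak at ZT15.1 ± 1.31 h (limma adjusted p = 0.181). The arrays of both overlapped between the windows, and for Slc43a3 this came from ZT10 lying above ZT18.

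The heavy chain Slc3a2 was highest within the food window. The signal of Slc3a2 was 1934 units at ZT02, 1852 at ZT06, 1766 at ZT10, 2113 at ZT14, 2245 at ZT18, 2064 at ZT22 and 2061 at ZT26. The 3 arrays with food lay above the 4 without, by a margin of 2064 against 2061 units. The amplitude was 0.15 ± 0.04 (SE) with a peak at ZT19.3 ± 0.94 h (limma adjusted p = 0.144).

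Its light chains Slc7a7 and Slc7a8 had fitted peaks after that of Slc3a2. The signal of Slc7a7, which exchanges cationic for neutral amino acids, was 123 units at ZT02, 115 at ZT06, 110.2 at ZT10, 122 at ZT14, 127 at ZT18, 127 at ZT22 and 127 at ZT26, with an amplitude of 0.11 ± 0.03 (SE) and a peak at ZT21.1 ± 1.01 h (limma adjusted p = 0.164). The signal of Slc7a8, for neutral amino acids, was 177 units at ZT02, 164 at ZT06, 135 at ZT10, 113 at ZT14, 164 at ZT18, 179 at ZT22 and 239.7 at ZT26. Slc7a8 was lowest 2 h after food was given and highest 2 h after it was removed, but its arrays of the same clock time, ZT02 and ZT26, differed by 0.44 on the log2 scale. Its amplitude was 0.38 ± 0.08 (SE) with a peak at ZT0.80 ± 0.88 h (limma adjusted p = 0.0772).

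Kupffer cells are resident liver macrophages, and their tested markers had fitted peaks late in the food window or shortly after it. Of 10 such markers 9 were tested and 6 were called rhythmic, against 4.47% of all probe sets tested. The called markers had peaks between ZT22.9 (Vsig4) and ZT0.56 (Lyz2). The median amplitude over the 9 was 0.35 on the log2 scale, against 0.09 over all probe sets tested. Their summed signal ran from 5944 to 8604 units inside and from 5570 to 8784 units outside the food window, and Marco was below the minimum. The part of these cells in the values of Slc7a7, Slc7a8 and the next members was not tested.

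Slc1a4 and Slc3a1 were low around the start of the food window, with the lowest array at ZT10 for Slc1a4 and at ZT14 for Slc3a1. The signal of Slc1a4 was 166 units at ZT02, 119 at ZT06, 88.4 at ZT10, 105 at ZT14, 155 at ZT18, 132 at ZT22 and 171 at ZT26. It was lower at ZT10 than on the other arrays and overlapped between the windows, with an amplitude of 0.41 ± 0.10 (SE) and a peak at ZT23.2 ± 0.92 h (limma adjusted p = 0.102). It passed without the ZT22 array (adjusted p = 0.0172).

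The heavy chain Slc3a1 had 1854 units at ZT02, 1377 at ZT06, 918 at ZT10, 828 at ZT14, 1114 at ZT18, 1256 at ZT22 and 1028 at ZT26. The ZT02 array was the highest, and the second array of that clock time, ZT26, lay below ZT06. The amplitude was 0.36 ± 0.13 (SE) with a peak at ZT1.55 ± 1.59 h (limma adjusted p = 0.254), and it was 0.23 without ZT02 and 0.52 without ZT26. The difference between ZT26 and ZT02 was -0.85 on the log2 scale, and Slc3a1 was the 1 member of 29 (3.45%) where it exceeded 0.5, against 1.19% of all probe sets tested.

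The carriers of betaine and of GABA and taurine were nearly level. Slc6a12 had 3291 units at ZT02, 3410.3 at ZT06, 3298 at ZT10, 3007 at ZT14, 3145 at ZT18, 3384 at ZT22 and 3277 at ZT26, with an amplitude of 0.06 ± 0.03 (SE; limma adjusted p = 0.440) that was 0.04 without ZT14. The signal of Slc6a13 was 5126 units at ZT02, 5172 at ZT06, 4827 at ZT10, 5011 at ZT14, 5511 at ZT18, 5467 at ZT22 and 5176 at ZT26, with an amplitude of 0.08 ± 0.03 (SE; limma adjusted p = 0.305). The ratio of highest to lowest array was 1.13 for Slc6a12 and 1.14 for Slc6a13, and the windows overlapped for both.

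**Figure D3:**
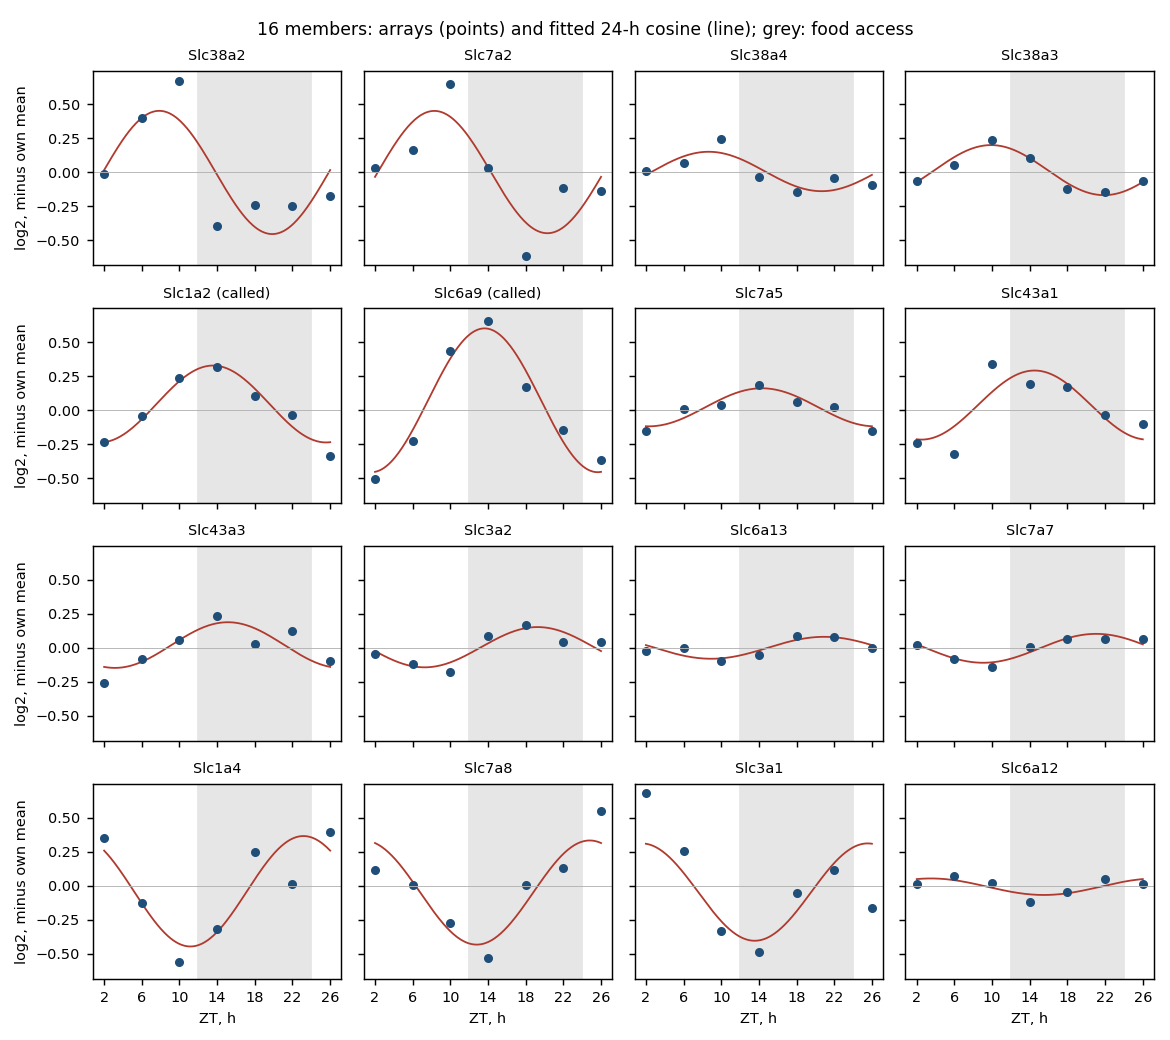
Log2 signal of 16 members on each array (points), minus the member's own mean over 7 arrays, against ZT in h, with the fitted 24-h cosine (line) and the hours of food in grey. The highest array is ZT10 for Slc38a2 and Slc7a2 and ZT14 for Slc6a9 and Slc1a2, and Slc3a1 differs between ZT02 (1854 units) and ZT26 (1028 units).

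The other 13 expressed members had amplitudes from 0.01 (Slc38a10) to 0.21 (Slc6a16) on the log2 scale, and none passed (limma adjusted p from 0.0908 to 0.978). Slc6a16 and Slc1a5 had the largest amplitudes of these, 0.21 ± 0.05 and 0.20 ± 0.06 (SE), with peaks at ZT10.1 and ZT19.0. The lysosomal members Slc38a9 and Slc36a1 had amplitudes of 0.10 and 0.14, and the taurine carrier Slc6a6 0.06. Slc38a10 and Slc6a8 had the same value, to the fifth decimal, on 5 of 7 arrays, so that their amplitudes rest on few distinct values. The share of members with the same value on at least 4 arrays was 6.90%, against 8.98% of all probe sets tested.

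Arrays of the food window were then compared with the others, to ask which carriers differed between feeding and fasting hours as a whole. Of the 29 members 0 passed, and so did 0 of the 12076 probe sets tested (0.0% called at a limma adjusted p under 0.05). At an unadjusted p under 0.05 the count was 3 of 29 (10.3%), against 11.2% of all, so the members were near the background. These 3 were Slc38a2, lower by 0.52 ± 0.20 (SE) on the log2 scale in the food window, Slc43a3, higher by 0.22 ± 0.08, and Slc3a2, higher by 0.17 ± 0.06 (limma adjusted p = 0.420, 0.420 and 0.409). For Slc38a2 and Slc3a2 the windows did not overlap, which is 2 of 29 (6.90%), against 8.68% of all probe sets tested. In 1 member, Slc3a2, the arrays with food were all higher (3.45%, against 4.23% of all), and in 1, Slc38a2, all lower (3.45%, against 4.45% of all). Slc6a9 and Slc1a2 had differences of 0.40 ± 0.27 and 0.22 ± 0.15 (SE) on the log2 scale, food window minus the rest (limma adjusted p = 0.602 and 0.594), and Slc7a2 one of -0.41 ± 0.22 (limma adjusted p = 0.520). Single arrays moved these 3 values by more than 1.5 times. That of Slc6a9 was 0.18 without ZT14 and 0.60 without ZT10, that of Slc1a2 0.13 without ZT14 and 0.14 without ZT26, and that of Slc7a2 -0.22 without ZT18 and -0.25 without ZT10. Each window pools different hours, so that its spread holds any change within it.

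**Figure D4:**
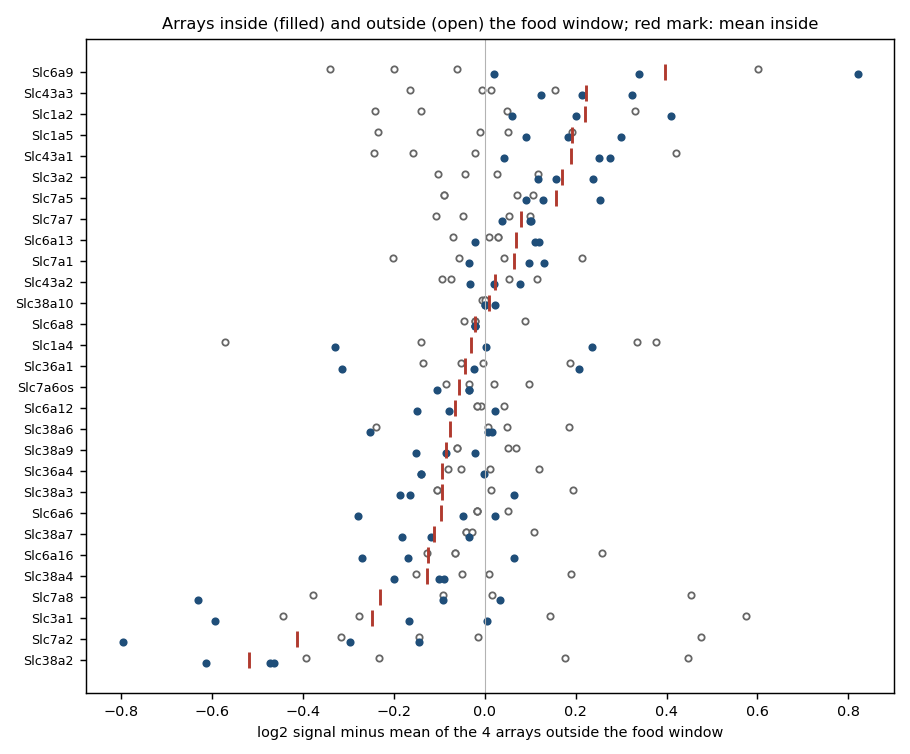
Log2 signal of the 29 expressed members on arrays inside (filled) and outside (open) the food window, minus the mean of the 4 arrays outside, with a red mark for the mean of the 3 arrays inside. Slc38a2 at the bottom (difference -0.52) and Slc3a2 (0.17) are the members whose windows do not overlap.

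The step across the start of feeding, from ZT10 to ZT14, was described after the values had been seen and without a test. The ZT14 array was more than 1.5-fold lower in 2 of 29 members (6.90%, against 1.87% of all probe sets tested), Slc38a2 (2.08-fold) and Slc7a2 (1.54-fold), and more than 1.5-fold higher in 0 members (against 1.87%). The step across the end of feeding, from ZT22 to ZT26, exceeded 1.5-fold in 0 members in either direction, against 0.315% lower and 0.563% higher over all. Across ZT02 and ZT26, the pair of arrays at 1 clock time, the median absolute difference was 0.09 on the log2 scale for the members and 0.09 over all probe sets tested, with a 95th percentile of 0.43 and 0.34.

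The profiles most like that of Slc6a9 over the 7 arrays were those of Ipo5, Rhbdd2 and Pi4ka (Pearson r = 0.991, 0.991 and 0.990). For Slc1a2 they were Scrib, Noct and Ubl3 (r = 0.988, 0.988 and 0.981). These are the 3 highest of all genes tested, and with 7 arrays they are a description.

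The other genes of amino acid handling were read from lists. Beside each list stands the share called rhythmic over all probe sets tested, 4.47%, and their median amplitude of 0.09 on the log2 scale. Of 14 tested carriers and accessory proteins outside the rule 2 were called rhythmic, Slc15a3 (a peptide and histidine carrier of lysosomes; amplitude 0.36, peak ZT1.20) and Slc25a44 (the mitochondrial carrier of branched-chain amino acids; 0.30, ZT17.4), and the list had a median amplitude of 0.16 on the log2 scale. Of 27 genes of the ATF4 amino acid response 2 were called, Atf5 (0.53, ZT0.18) and Chac1 (a glutathione-degrading enzyme; 0.46, ZT6.49), with a median of 0.15. On the 3 arrays with food 2 of the 27, Chac1 and Trib3, were lower than on the 4 without, and 0 were higher. Over all probe sets tested 4.45% were lower and 4.23% higher. Atf4 itself had an amplitude of 0.05 (limma adjusted p = 0.804). Its signal was 287.1 units at ZT02, ZT10, ZT22 and ZT26 alike, so that this amplitude rests on few distinct values. Of 29 genes of nutrient sensing by mTORC1 0 were called, with a median of 0.09, and Flcn, a regulator of lysosomal mTORC1 signalling, had an amplitude of 0.49 (limma adjusted p = 0.0598). Of these 29, 3 were lower on all arrays with food and 2 higher. In the lists given next, 3 of 41 genes of amino acid breakdown were lower and 1 higher. Of 21 genes of feeding and fasting 2 were lower and 1 higher. Among the 14 carriers and accessory proteins 1 was lower and 2 higher.

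Of 41 genes of amino acid breakdown 3 were called, Amt (glycine cleavage; amplitude 0.54, peak ZT2.92), Cbs (transsulfuration; 0.43, ZT2.38) and Kynu (tryptophan breakdown; 0.23, ZT1.68), with a median of 0.09 on the log2 scale. The glycine cleavage gene Amt thus had its fitted peak in the morning, against ZT13.6 for the glycine carrier Slc6a9, and no test of that difference was made. Other glycine cleavage genes of the list had other peak times and were not called. These were Gldc (amplitude 0.52, peak ZT22.9, limma adjusted p = 0.0663) and Gcsh (0.09, ZT7.32, limma adjusted p = 0.616). Of 21 genes of feeding and fasting 8 were called, with a median amplitude of 0.43, among them Igfbp1 (1.88, ZT3.95), Pdk4 (1.35, ZT23.8), Thrsp (1.20, ZT16.1) and Insig2 (0.87, ZT0.42). Of 14 clock genes 11 were called, with a median of 1.17, among them Nr1d1 (2.38, ZT7.18), Dbp (2.13, ZT10.9), Arntl (1.80, ZT22.8) and Per2 (1.53, ZT15.1). The largest amplitude of a carrier, 0.53 for Slc6a9, was thus below the median of the clock list.

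Markers of other cell types gave 0 calls for periportal hepatocytes (3 tested), endothelial cells (7), stellate cells (5), cholangiocytes (1), lymphocytes (2) and red cells (1). Their median amplitudes were 0.24, 0.06, 0.12, 0.51, 0.17 and 0.16 on the log2 scale, in that order. Sox9, the 1 tested cholangiocyte marker, had its fitted peak at ZT22.9. The 2 tested lymphocyte markers, Cd3e and Cd79b, had theirs at ZT0.30 and ZT23.9. With 1 to 7 genes tested per type, 0 calls do not show that these markers were level. Of 4 neutrophil markers 0 passed the minimum. The 1 tested neuron marker, Syt1, was called, and the other 3 were below the minimum.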

How the data were processed

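Liver RNA was measured on 7 arrays, 1 pool of 5 mice per time point. The authors deposited log2 values. The submitters' processing notes name RMA and Affymetrix Expression Console (version 1.1.2637.26569). RMA corrects background, normalizes between arrays and summarizes probes. That scaling can remove a change shared by most probe sets. Natural-scale units are 2 to the power of these values. The methods give 85 units as the expression minimum and 43 as background.

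Of 35556 probe sets, 21789 have 1 symbol in the platform annotation, 1621 several and 12146 are unnamed here. All 64 members matched RefSeq by gene ID with the same symbol. Cosine and sine terms of a 24-h period were fitted with limma 3.58.1 in R 4.3.3 (lmFit, eBayes, moderated F-test, 4 residual degrees of freedom), and arrays of ZT14, ZT18 and ZT22 were compared with the other 4 by the moderated test (5 residual degrees of freedom). Benjamini-Hochberg adjustment ran over the 12076 probe sets with 1 symbol and a mean above 85 units, and an adjusted p under 0.05 was a call. The scripts were tested on simulated data. P-values measure the spread of single pools around the fit, and the number of arrays limits the precision.

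The members and lists were chosen with earlier results of these data known, and support nothing by themselves. Values on each array are given for members called in either fit, for the 8 with the largest amplitude and the 8 with the highest mean, and for expressed heavy and light chains. From each list up to 4 called genes with the largest amplitude were named, or up to 2 where none was called. Atf4, Trib3, Glul, Rhbg, Gldc, Gcsh, Marco, Sox9, Cd3e and Cd79b were named after their values were seen. Alternatives changed the minimum, scaling, pseudocount, spread estimate, arrays, probe sets, test and hours of each window. Tables and figures used Python 3.11.15, pandas 2.3.3 and matplotlib 3.10.9. Pol II and histone mark data were not analysed here.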

Additional observations from a re-analysis of the deposited data

How the results depend on the processing

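The number of expressed members (29) was the same with means of log2 values or medians of a gene's probe sets. The number called rhythmic, 2, became 1 with no minimum on the mean, 1 with ZT02 and ZT26 averaged (Slc6a9 in both), 0 with Fisher's test for one period after adjustment and 8 by the mRNA part of the methods' thresholds. These settings called 57 of 21789 probe sets, and 93, 0 and 1645 of 12076, in that order. The number of members was 3 with a minimum of 170 units, centring, quantile normalization, a pseudocount of 43 units or an intensity trend, Slc38a3 being the third. The calls over all probe sets rose in these settings too. They were 703 of 8993 with a minimum of 170 units and 618 to 772 of 12076 with the others, against 540 of 12076 in the main fit. Leaving out 1 array gave 0 to 3, with 0 without ZT02 or without ZT14. Over all probe sets the calls fell from 540 to between 13 (without ZT02) and 312 (without ZT22), so that the arrays left out limit the whole table. The count of members differing in the food window was 0 in all alternatives run. The count with no overlap of windows, 2, was 2 to 8 with 1 array left out (4 when ZT18 was omitted, 5 for ZT22 or ZT26, 7 for ZT10 and 8 for ZT14) and 3 with no minimum. Fewer arrays make separation easier for any probe set. The share over all probe sets was not counted in these alternatives, so the counts say nothing about the members in particular. With the windows delayed by 4 h, ZT14 moved out of the food window and ZT02 and ZT26 moved into it. In this setting 4 differences turned sign, to -0.29 for Slc1a2, -0.12 for Slc43a3, -0.50 for Slc6a9 and -0.13 for Slc7a5, of which none passed. All 4 members had their highest array at ZT14 and their lowest at ZT02 or ZT26, so that regrouping the same arrays set these signs. A cause of the profiles was not tested. The differences of Slc38a2 (-0.40), Slc3a2 (0.12) and Slc7a2 (-0.49) kept their sign. Single window differences under the alternatives are given for these members only and not for all 29. Leaving out both ZT02 and ZT26 took the differences to 0.13 for Slc6a9, 0.04 for Slc1a2, 0.07 for Slc7a5, 0.14 for Slc43a3, -0.64 for Slc7a2 and -0.83 for Slc38a2. Among 326 values under an alternative, 10 lost a call (Slc6a9 or Slc1a2) and 6 gained one (Slc38a3 or Slc1a4). These values are amplitudes of the 16 members described in full and window differences of the members just named. Amplitudes have no sign and no window difference had been called, so the remaining values do not measure stability. No paired analysis was possible because each time point has 1 array and the labels give no replicate numbers.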

Other observations

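Slc3a1 was not the only gene of amino acid handling with a high ZT02 array. The signal of Asns, asparagine synthetase of the ATF4 list, was 599 units at ZT02 and 191 to 320.4 units on the other 6 arrays, with 285 at ZT26. Asns was chosen after its values were seen, its cosine did not pass (limma adjusted p = 0.155), and whether both values reflect the ZT02 pool was not tested. Slc38a6, with 160.5 units at ZT02 and 215 at ZT26, and Slc7a1, with 121.5 at ZT02 and 91.1 at ZT26, differed, besides Slc3a1 and Slc7a8, by more than 0.4 on the log2 scale between the repeated clock times (0.42 and -0.42).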
